A study of Homo sapiens with 38 samples.

Results

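Germinal centre and B-lineage transcription factors were followed through 37 RNA sequencing libraries of 6 human lymphoma lines. The 10 genes are BCL6, BACH2, IRF8, SPIB, MEF2B, POU2AF1, EBF1, PAX5, IKZF1 and IKZF3. They were chosen by name as B-cell transcription factor genes, with earlier results of these data known, so they are not a blind choice. All 10 symbols were found once among the 18011 genes of the count table. All 10 passed the filter on low counts in every comparison.

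The lines OCILY1, PFEIFFER, SUDHL4, SUDHL6, TOLEDO and WSUDLCL2 are established lines of diffuse large B-cell lymphoma, a tumour of mature B cells. They were cultured with vorinostat, with pracinostat or with the solvent dimethyl sulfoxide (DMSO). Each drug is a hydroxamic acid inhibitor of histone deacetylases, enzymes that remove acetyl groups from histones and other proteins. At 14 days there were 5 vorinostat, 5 pracinostat, 5 DMSOV and 5 DMSOP libraries, without SUDHL6. At 6 h there were 5 vorinostat libraries, without SUDHL6, 6 pracinostat libraries and 6 DMSO libraries. The titles name 2 solvent sets at 14 days, and each drug was compared with the set that carries its first letter, which is a reading of the titles. The 6 h DMSO libraries served both drugs, so both 6 h comparisons share their controls. Their titles say only DMSO, but the column headers of the normalized table call them DMSOV in OCILY1, SUDHL4, SUDHL6 and WSUDLCL2 and DMSOP in PFEIFFER and TOLEDO. By the same reading of the letters, each drug at 6 h was set against the solvent of the other drug in some lines, and line and solvent set cannot be told apart there. With 1 library from each line under each treatment at each time, lines serve as the replicates, and doses were not found in the sources used here. The series title speaks of sensitivity to deacetylase inhibitors, and the comparisons below ask how the transcription factor genes behaved under each drug.

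Mature B cells keep their identity through a network of transcription factors. EBF1 and PAX5 switch on and maintain the B-cell programme, and the zinc finger proteins IKZF1 (Ikaros) and IKZF3 (Aiolos) act beside them. In the germinal centre, where B cells mutate their antibody genes, BCL6 represses genes of plasma cell differentiation and of the DNA damage response, and it does so partly through corepressor complexes that contain the histone deacetylase HDAC3. MEF2B, IRF8, SPIB, BACH2 and the octamer coactivator POU2AF1 (OCA-B) also belong to this network.

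On GRCh38 the germinal centre factors span BCL6 (ENSG00000113916) on the minus strand of chr3:187721377-187745727, BACH2 (ENSG00000112182) on the minus strand of chr6:89926529-90296908, IRF8 (ENSG00000140968) on the plus strand of chr16:85898803-85922609, and MEF2B (ENSG00000213999) on the minus strand of chr19:19145568-19170289 in the GENCODE 29 annotation. The coactivator and ETS genes are POU2AF1 (ENSG00000110777) on the minus strand of chr11:111352252-111455630 and SPIB (ENSG00000269404) on the plus strand of chr19:50418938-50431313. The early B-lineage factors are EBF1 (ENSG00000164330) on the minus strand of chr5:158695916-159099761 and PAX5 (ENSG00000196092) on the minus strand of chr9:36833275-37034185. The Ikaros family genes are IKZF1 (ENSG00000185811) on the plus strand of chr7:50304068-50405101 and IKZF3 (ENSG00000161405) on the minus strand of chr17:39757715-39864188. All 10 are protein-coding. Of SPIB's exon bases 19.6% are shared on the same strand with AC020909.1. On the other strand, annotated genes overlap 8.24% of the exon bases of BCL6, 4.05% of BACH2 and 3.18% of POU2AF1, and since the strand setting of the counting was not given, reads there cannot be assigned with certainty.

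Library totals ran from 3188528 to 8919622 counts, and levels are given in CPM, counts per a common library size after trimmed-mean (TMM) scaling. All 6 B-cell markers were present, with CD79A between 47.8 and 1394 CPM and MS4A1 between 356 and 6548 CPM, whereas the T-cell markers CD3D and CD3E had medians of 0 and 0.122 CPM. Other genes of the T-cell list were present, with LCK at a median of 79.9 CPM and maxima of 1213 CPM for CD8A, 100.4 for TRAC and 58.8 for TCF7. In 37 of 37 libraries the most similar other library came from the same line. At 14 days, mitochondrially encoded genes took 10.5 to 17.5% of counts with vorinostat and 11.1 to 17.0% with pracinostat, against 6.76 to 12.0% in DMSOV and 6.45 to 11.0% in DMSOP. The part of this share in the 14-day results was not tested.

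In the solvent libraries the genes differed widely in level and in how evenly the lines expressed them. Per kilobase of exon, the median over lines was 82.0 CPM for BCL6, 58.1 for POU2AF1, 56.8 for IRF8, 34.1 for PAX5, 33.8 for IKZF1, 32.3 for IKZF3 and 23.4 for SPIB. EBF1 and BACH2 stood lower, at 11.9 and 11.7 CPM per kilobase, and MEF2B lowest, at 2.42. SPIB, IKZF1 and PAX5 were the most even, with the highest line 1.84, 1.87 and 2.14 times the lowest. At the other end, this ratio was 409 for BACH2, 362 for EBF1 and 89.3 for BCL6.

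**Figure D1:**
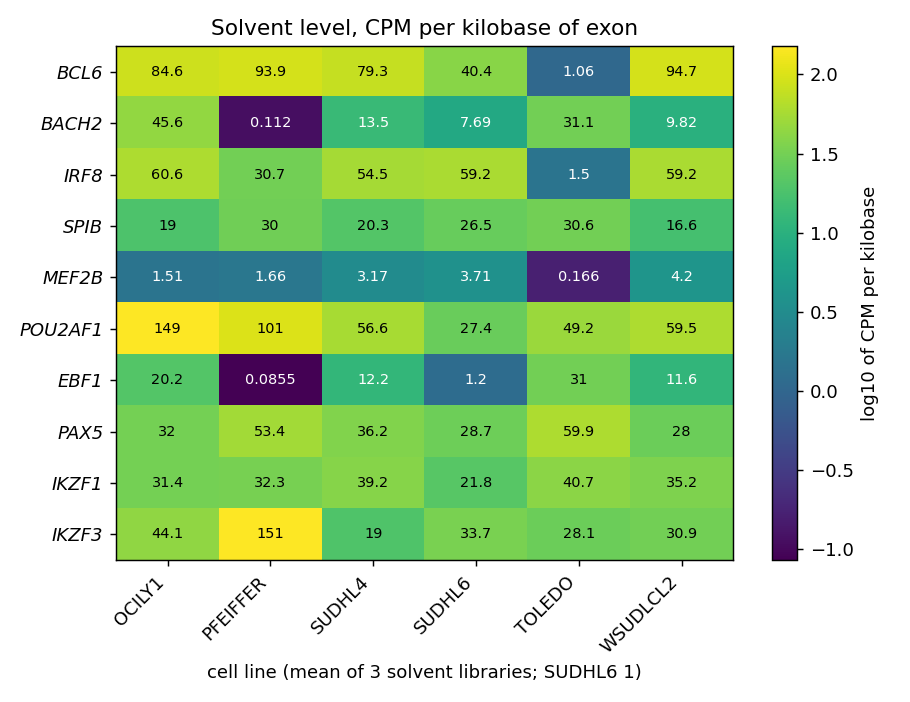
Level of each gene (rows) in each line (columns) in solvent, as CPM per kilobase of exon, printed in each cell and coloured on a log10 scale; each value is the mean of 3 solvent libraries, or 1 for SUDHL6. BCL6, IRF8 and MEF2B are lowest in TOLEDO, and BACH2 and EBF1 in PFEIFFER.

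The uneven genes were each nearly missing from 1 line. BCL6 averaged 6.30 ± 0.407 CPM in TOLEDO solvent libraries (SD, n = 3), while the next line up, SUDHL6, had 239.7 CPM in its 1 library and the other 4 lines averaged 471 to 563 CPM. The order among WSUDLCL2, PFEIFFER, OCILY1 and SUDHL4 lay within their spread. IRF8, which works with PU.1-family partners in germinal centre B cells, averaged 7.76 ± 1.80 CPM in TOLEDO against 159 to 313 CPM elsewhere. MEF2B, an activator of BCL6, averaged 0.307 ± 0.170 CPM in TOLEDO, from 1 to 3 counts per library, and 2.80 to 7.76 CPM elsewhere. The same line was the highest for EBF1, at 191 ± 33.5 CPM, and for PAX5, at 559 ± 29.2 CPM, although PFEIFFER overlapped with it for PAX5.

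PFEIFFER nearly lacked EBF1 and BACH2. EBF1 averaged 0.528 ± 0.224 CPM there and BACH2, a repressor of plasma cell genes, 1.09 ± 0.664 CPM (SD, n = 3 each). SUDHL6 was also low in EBF1, at 7.41 CPM in its 1 library. IKZF3 was highest in PFEIFFER, at 1513 ± 119 CPM, with 190.3 to 442 CPM in the other lines. POU2AF1 was highest in OCILY1, at 1107 ± 199.6 CPM, and lowest in SUDHL6, at 203 CPM. These levels are described without a test, since libraries of a line may share a culture.

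Promoter windows are shown for PAX5, IKZF1 and SPIB, which were lower under both drugs at 6 h, and for BCL6, whose response split by line. Each window runs from 250 bases before to 50 bases after a gene's start in RefSeq on GRCh38.p14, written 5′ to 3′ on the strand of the gene, and 8 of the 10 genes have one in the table. POU2AF1 and IKZF3 are the other two. Capitals mark matches on either strand to the GC box, the letters GGGCGG. They also mark the ETS letters ACCGGAAG and the octamer ATGCAAAT. Also marked are the TATA letters, TATAAA. The last marked is the STAT motif TTCNNNGAA, where N is any base.
PAX5, chr9:37034219-37034518, minus strand: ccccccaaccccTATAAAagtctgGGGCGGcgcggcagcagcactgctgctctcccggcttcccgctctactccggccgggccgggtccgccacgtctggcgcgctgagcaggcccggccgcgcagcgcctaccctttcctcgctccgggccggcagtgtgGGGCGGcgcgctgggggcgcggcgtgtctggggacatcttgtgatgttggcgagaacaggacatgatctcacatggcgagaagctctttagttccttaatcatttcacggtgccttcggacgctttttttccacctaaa
IKZF1, chr7:50304466-50304765, plus strand: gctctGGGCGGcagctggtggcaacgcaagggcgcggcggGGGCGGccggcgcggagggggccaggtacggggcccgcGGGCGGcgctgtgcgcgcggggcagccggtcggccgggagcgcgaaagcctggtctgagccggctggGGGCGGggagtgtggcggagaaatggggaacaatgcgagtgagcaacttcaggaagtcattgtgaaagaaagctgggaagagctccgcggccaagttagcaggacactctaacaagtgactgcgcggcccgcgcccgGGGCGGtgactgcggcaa
SPIB, chr19:50418688-50418987, plus strand: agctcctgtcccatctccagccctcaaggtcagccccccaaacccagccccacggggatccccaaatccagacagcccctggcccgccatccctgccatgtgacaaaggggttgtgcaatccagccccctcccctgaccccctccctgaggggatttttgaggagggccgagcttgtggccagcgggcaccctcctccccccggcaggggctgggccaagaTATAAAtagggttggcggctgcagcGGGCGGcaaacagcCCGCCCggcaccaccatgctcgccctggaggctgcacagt
BCL6, chr3:187745419-187745718, minus strand: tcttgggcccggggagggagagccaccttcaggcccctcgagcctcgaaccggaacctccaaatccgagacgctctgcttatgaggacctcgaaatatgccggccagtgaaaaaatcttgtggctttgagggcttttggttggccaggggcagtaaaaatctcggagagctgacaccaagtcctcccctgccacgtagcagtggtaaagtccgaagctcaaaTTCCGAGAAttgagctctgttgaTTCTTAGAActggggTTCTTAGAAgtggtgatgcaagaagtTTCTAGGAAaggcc
The PAX5 window holds 2 GC boxes and 1 TATA match, the IKZF1 window 5 GC boxes, and the SPIB window 2 GC boxes and 1 TATA match. The BCL6 window has none of these and holds 4 STAT matches. Of 35116 promoter windows 15786 hold a GC box, 11.5% the TATA letters, 7.66% the STAT letters, 2.17% the ETS letters and 1.77% the octamer. Of the other windows, MEF2B holds the octamer and 2 GC boxes, BACH2 holds 3 GC boxes, and IRF8 and EBF1 hold none of these. The IRF8 window is chr16:85902580-85902879 on the plus strand, and the EBF1 window chr5:159097907-159098206 on the minus strand. Both lie wholly inside the gene spans given above, as do the IKZF1 and BCL6 windows. The bases at the outer annotated start of these genes were not scanned, so other promoters of theirs may hold such letters. E-boxes (CANNTG), not capitalised, are in 6 of the 8 windows and in 68.7% of all. A match is a description of letters and was not tested against the drug effects.

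At 6 h most of the 10 genes stood below their solvent level. With vorinostat, 6 of 10 were called lower and none higher, where a call is a Benjamini-Hochberg adjusted p under 0.05 in edgeR's quasi-likelihood test with the line as block. With pracinostat 6 of 10 were called lower and none higher. Over all genes tested, 43.9% were called with vorinostat (20.9% lower) and 40.1% with pracinostat (18.9% lower). The median log2 fold change of the 10 genes was -0.62 with vorinostat and -0.60 with pracinostat, beside 0.02 with vorinostat and 0.03 with pracinostat over all genes. In bulk samples fewer cells of a kind and less RNA per cell cannot be told apart, which applies to all values here. Fitted values were negative for 9 genes with vorinostat, all but IRF8, and for 10 with pracinostat.

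**Figure D2:**
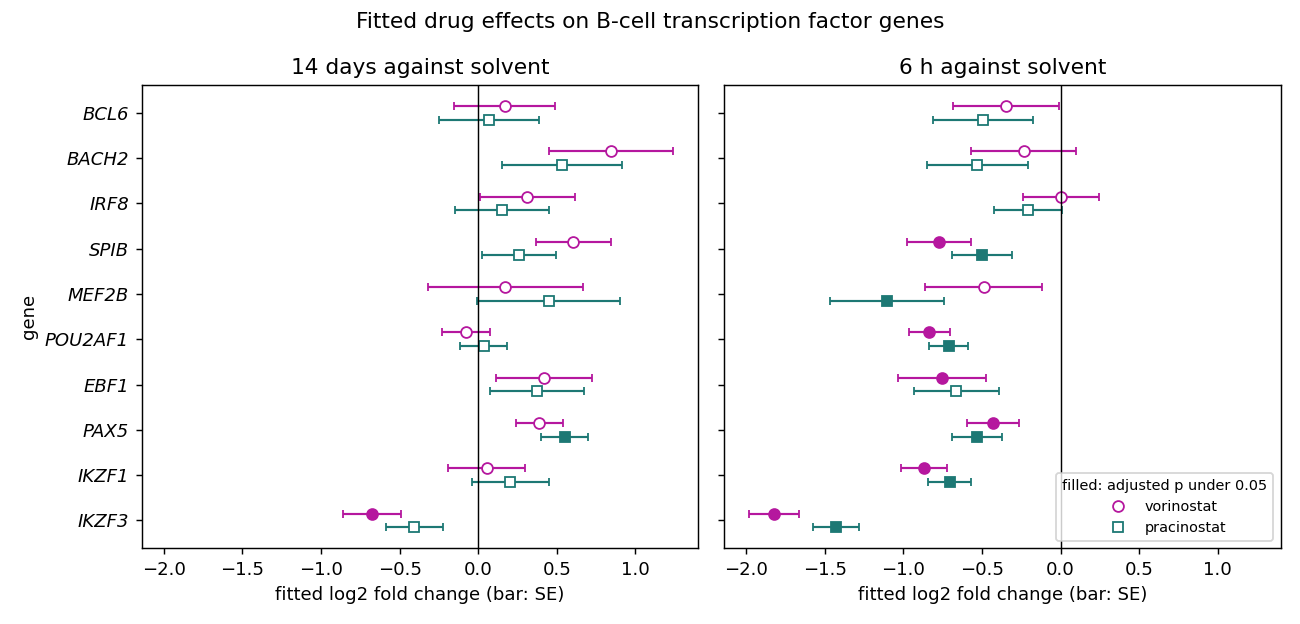
Fitted log2 fold change against solvent with its standard error (bars) for each gene, at 14 days (left) and 6 h (right); circles are vorinostat, squares pracinostat, and filled symbols passed an adjusted p of 0.05. At 6 h IKZF3 lies farthest to the left under both drugs, and at 14 days most symbols are open and lie at or right of 0.

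IKZF3, the Aiolos gene of late B-cell stages, fell most among the 10 genes by fitted value. With vorinostat at 6 h it stood at 112 CPM in OCILY1, 574 in PFEIFFER, 54.1 in SUDHL4, 98.5 in TOLEDO and 79.8 in WSUDLCL2. With pracinostat it stood at 133 CPM in OCILY1, 597 in PFEIFFER, 81.1 in SUDHL4, 190.9 in SUDHL6, 100.3 in TOLEDO and 136 in WSUDLCL2. In DMSO the same lines, in that order, had 495.6, 1378, 228, 337, 287 and 386 CPM. Every line was lower with either drug, and the groups overlapped, with PFEIFFER on drug above the other lines in DMSO; among the other lines they did not overlap. The log2 fold change was -1.82 (SE 0.16, adjusted p = 7.99e-07) with vorinostat and -1.43 (SE 0.15, adjusted p = 3.89e-06) with pracinostat in edgeR. Its relative IKZF1, the Ikaros gene, was called lower under both drugs too.

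IKZF1 at 6 h had 199 CPM in OCILY1, 185 in PFEIFFER, 248 in SUDHL4, 148 in TOLEDO and 207 in WSUDLCL2 with vorinostat. With pracinostat it had 209 CPM in OCILY1, 149.9 in PFEIFFER, 331 in SUDHL4, 182 in SUDHL6, 169 in TOLEDO and 237 in WSUDLCL2. In DMSO the same lines, in that order, had 341, 324, 343, 238, 412 and 351 CPM. IKZF1 was lower in 5 of 5 lines with vorinostat and in 6 of 6 with pracinostat, with log2 fold changes of -0.87 (SE 0.15, adjusted p = 0.000207) with vorinostat and -0.71 (SE 0.14, adjusted p = 0.000785) with pracinostat. The largest IKZF1 differences were in TOLEDO, at -1.47 with vorinostat and -1.28 with pracinostat on the log2 scale.

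POU2AF1, whose product binds octamer factors at immunoglobulin and other B-cell genes, fell under both drugs. With vorinostat it had 381 CPM in OCILY1, 354 in PFEIFFER, 233 in SUDHL4, 179 in TOLEDO and 245 in WSUDLCL2. With pracinostat it had 366 CPM in OCILY1, 393 in PFEIFFER, 255 in SUDHL4, 197 in SUDHL6, 189 in TOLEDO and 232.5 in WSUDLCL2, against 883, 602, 398.5, 203, 339.5 and 384 CPM in DMSO in that order of lines. All lines were lower with either drug, SUDHL6 by the least. The log2 fold change was -0.83 (SE 0.13, adjusted p = 0.000122) with vorinostat and -0.71 (SE 0.12, adjusted p = 0.000354) with pracinostat. POU2AF1, IKZF1 and IKZF3 kept their calls under both drugs whichever line was left out.

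PAX5, the commitment factor of the B lineage, and SPIB, an ETS-family partner of IRF factors, were also called lower under both drugs. PAX5 had a log2 fold change of -0.43 (SE 0.17, adjusted p = 0.0483) with vorinostat and -0.53 (SE 0.16, adjusted p = 0.0145) with pracinostat. SPIB had -0.78 (SE 0.20, adjusted p = 0.00635) with vorinostat and -0.50 (SE 0.19, adjusted p = 0.0461) with pracinostat. In PFEIFFER SPIB had 65.7 CPM with vorinostat and 99.2 CPM with pracinostat, against 195 CPM in DMSO, while in TOLEDO it had 160.5 CPM with vorinostat and 123 CPM with pracinostat, against 149 CPM in DMSO. PAX5 in PFEIFFER had 340 CPM with vorinostat and 304 CPM with pracinostat, against 568 CPM in DMSO, and in TOLEDO 491 CPM with vorinostat and 465.5 CPM with pracinostat, against 526 CPM in DMSO. SUDHL6 went the other way for PAX5, at 308 CPM with pracinostat against 268 CPM in DMSO, a ratio of 1.15 (95% exact counting interval 1.08 to 1.22). PAX5 with vorinostat lost its call without OCILY1, PFEIFFER, SUDHL4 or TOLEDO (adjusted p = 0.0812, 0.154, 0.226 and 0.0501), and PAX5 with pracinostat lost it without PFEIFFER (adjusted p = 0.0544). SPIB with pracinostat lost its call without OCILY1, PFEIFFER, SUDHL4 or WSUDLCL2 (adjusted p = 0.0518, 0.118, 0.154 and 0.0945). Other settings also ended these calls. PAX5 with vorinostat had an adjusted p of 0.0551 with RLE size factors, 0.127 with library totals alone and 0.0790 with limma, and PAX5 with pracinostat had 0.0520 with library totals alone. SPIB with pracinostat had 0.0542 with RLE size factors, 0.105 with library totals alone and 0.0743 with limma.

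MEF2B and EBF1 were called under 1 drug each. MEF2B had a log2 fold change of -0.49 (SE 0.37, adjusted p = 0.310) with vorinostat and -1.11 (SE 0.36, adjusted p = 0.0240) with pracinostat. Its counts were low, 6 with pracinostat against 48 in DMSO in WSUDLCL2 and 10 with pracinostat against 27 in DMSO in SUDHL4, and it had 1 to 88 counts over all libraries. Of its exon bases 73.9% are shared on the same strand with the read-through gene BORCS8-MEF2B, so reads of the pair cannot be assigned with certainty. With the reads of both genes added the MEF2B value with pracinostat was -0.999 (adjusted p = 0.0395), an alternative chosen after seeing the data, and MEF2B lost its call without SUDHL4, SUDHL6 or WSUDLCL2 (adjusted p = 0.118, 0.0552 and 0.0836) and with limma (adjusted p = 0.148). EBF1 had -0.75 (SE 0.28, adjusted p = 0.0402) with vorinostat and -0.66 (SE 0.27, adjusted p = 0.0654) with pracinostat. In TOLEDO, the line with the most EBF1, it had 51.7 CPM with vorinostat and 61.1 CPM with pracinostat, against 153 CPM in DMSO. EBF1 with vorinostat lost its call without OCILY1, SUDHL4, TOLEDO or WSUDLCL2 (adjusted p = 0.118, 0.0779, 0.183 and 0.0754). It also lost it with no filter on low counts, with DESeq2, with library totals alone and with limma (adjusted p = 0.0682, 0.0762, 0.0766 and 0.622).

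**Figure D3:**
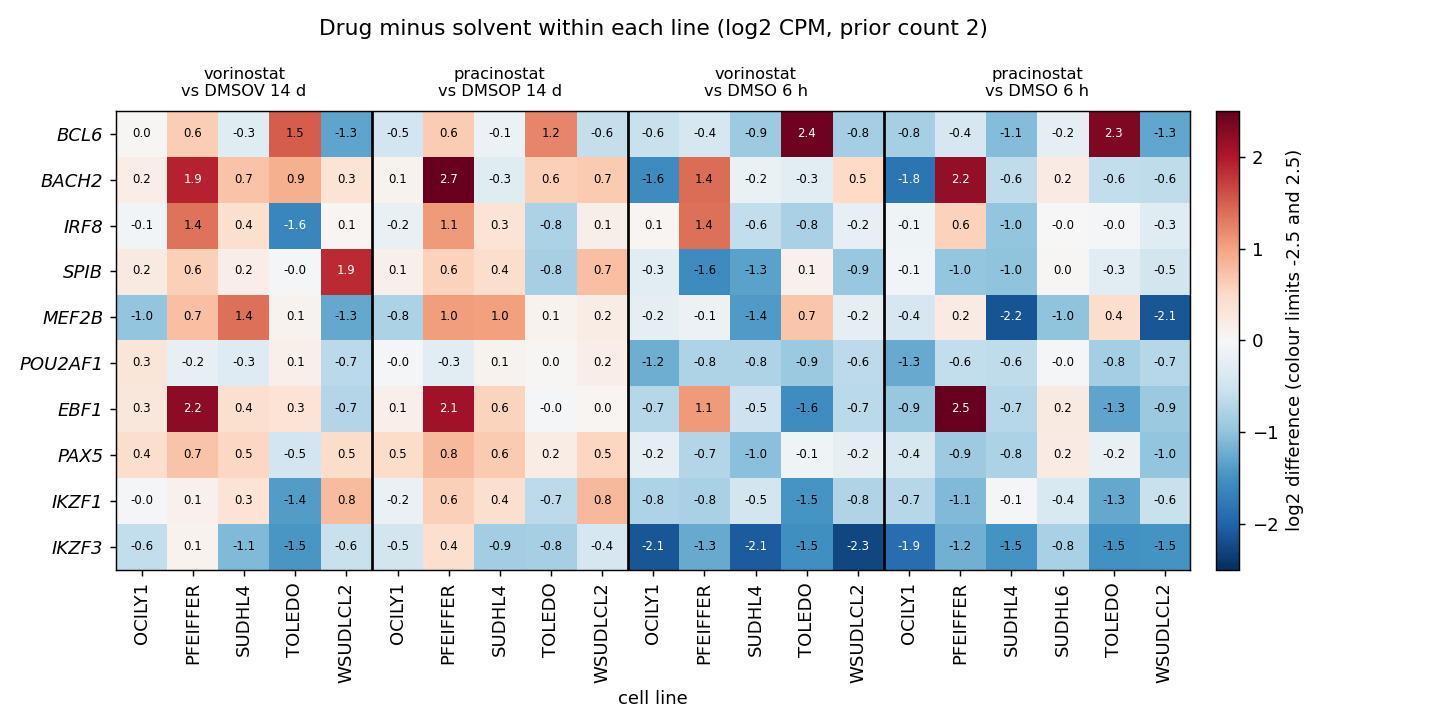
Log2 difference in CPM (prior count 2) between drug and solvent in each line (columns, grouped by comparison) for each gene (rows), printed and coloured. IKZF3 is negative in all 11 columns at 6 h, while BCL6 in TOLEDO and BACH2 and EBF1 in PFEIFFER are positive in all 4 comparisons.

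BCL6, BACH2 and IRF8 were called under neither drug at 6 h, and the lines went opposite ways. BCL6 in TOLEDO had 37.7 CPM with vorinostat and 35.5 CPM with pracinostat, against 6.74 CPM in DMSO, ratios of 5.59 with vorinostat (95% exact counting interval 4.05 to 7.88) and 5.26 with pracinostat (3.79 to 7.45). In the other lines BCL6 was lower with either drug, at 237 to 376 CPM with vorinostat and 174 to 316 CPM with pracinostat, against 239.7 to 557 CPM in DMSO. TOLEDO was the only line higher with drug, and it stayed below every other line. The 6 h DMSO columns headed DMSOP are those of TOLEDO, where BCL6 was higher with drug, and of PFEIFFER, where EBF1 and BACH2 were. Without TOLEDO, BCL6 was called lower, at -0.66 with vorinostat (adjusted p = 0.00406) and -0.79 with pracinostat (adjusted p = 0.000839). With TOLEDO the values were -0.35 (SE 0.34, adjusted p = 0.434) with vorinostat and -0.49 (SE 0.32, adjusted p = 0.235) with pracinostat.

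PFEIFFER was likewise higher with drug for the genes it nearly lacked. EBF1 there had 8 counts with vorinostat and 19 with pracinostat against 2 in DMSO, ratios of 3.33 with vorinostat (exact counting interval 0.664 to 32.2) and 11.1 with pracinostat (2.68 to 98.5). BACH2 there had 33 counts with vorinostat and 42 with pracinostat against 9 in DMSO, ratios of 3.05 with vorinostat (1.43 to 7.25) and 5.46 with pracinostat (2.62 to 12.8). These levels, up to 6.74 CPM, stayed below those of every other line. Without PFEIFFER, EBF1 with pracinostat was called lower, at -0.82 (adjusted p = 0.00307), and so was BACH2, at -0.74 (adjusted p = 0.0319). EBF1 with pracinostat was also called without SUDHL6, at -0.81 (adjusted p = 0.0390). With all lines BACH2 had -0.23 (SE 0.33, adjusted p = 0.600) with vorinostat and -0.53 (SE 0.32, adjusted p = 0.208) with pracinostat. BACH2 was lowest relative to solvent in OCILY1, at 139 CPM with vorinostat and 117 CPM with pracinostat against 418 CPM in DMSO, and without OCILY1 its values were 0.17 with vorinostat (adjusted p = 0.697) and -0.15 with pracinostat (adjusted p = 0.713). It was also higher in WSUDLCL2 with vorinostat, at 72.8 CPM against 51.5 CPM in DMSO, and in SUDHL6 with pracinostat, at 87.3 CPM against 75.3 CPM in DMSO. IRF8 had a fitted value of 0.00 (SE 0.24) with vorinostat and -0.21 (SE 0.21) with pracinostat, and in PFEIFFER it had 319 CPM with vorinostat and 184 CPM with pracinostat, against 123 CPM in DMSO.

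SUDHL6, analysed here with pracinostat only, stood apart from the other lines in the median of the 10 genes. The median difference of its 10 genes was -0.02 on the log2 scale, with 6 negative and 4 positive, while the medians of the other 5 lines with pracinostat ran from -0.89 to -0.45. The split of 6 and 4 was shared by PFEIFFER with pracinostat, where the median was -0.51. Over all genes, 16.4% differed at least 2-fold in SUDHL6 with pracinostat, within the 15.2 to 22.3% of the other lines. IKZF3 was still lower there, at 190.9 CPM against 337 CPM in DMSO. This is 1 library against 1, so the difference between SUDHL6 and the other lines has no replicate check.

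At 14 days most of the 10 genes stood at or above their solvent level. With vorinostat 1 of 10 was called lower and with pracinostat 1 of 10 was called higher, while over all genes 37.6% were called with vorinostat (17.2% lower) and 22.6% with pracinostat (12.3% higher). The median log2 fold change of the 10 genes was 0.24 with vorinostat and 0.23 with pracinostat, beside 0.12 with vorinostat and 0.07 with pracinostat over all genes.

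IKZF3 was the gene called lower, with vorinostat. With vorinostat at 14 days it had 264.5 CPM in OCILY1, 1709 in PFEIFFER, 77.9 in SUDHL4, 104 in TOLEDO and 184 in WSUDLCL2, against 407, 1604, 168, 285 and 269 CPM in DMSOV. With pracinostat it had 307, 2086, 96.0, 152 and 205 CPM in these lines, against 422, 1557, 174, 271 and 274 CPM in DMSOP. All lines but PFEIFFER were lower under both drugs. The log2 fold change was -0.68 (SE 0.18, adjusted p = 0.00901) with vorinostat and -0.41 (SE 0.18, adjusted p = 0.117) with pracinostat. The vorinostat call was lost without SUDHL4 or TOLEDO (adjusted p = 0.0511 and 0.0655), and without PFEIFFER IKZF3 was also called with pracinostat, at -0.61 (adjusted p = 0.0220).

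PAX5 was the gene called higher. With pracinostat at 14 days it had 365 CPM in OCILY1, 793 in PFEIFFER, 411 in SUDHL4, 648.5 in TOLEDO and 436 in WSUDLCL2, against 264, 449, 262, 572 and 300.2 CPM in DMSOP. It was higher in 5 of 5 lines, with a log2 fold change of 0.55 (SE 0.15, adjusted p = 0.0164). With vorinostat it was higher in 4 of 5 lines and lower in TOLEDO, at 418 CPM against 580 CPM in DMSOV, with a fitted value of 0.39 (SE 0.15, adjusted p = 0.0515). The pracinostat call was lost without OCILY1, PFEIFFER or SUDHL4 (adjusted p = 0.0524, 0.0828 and 0.0855), and without TOLEDO the vorinostat value was 0.56 (adjusted p = 0.00508). With all lines PAX5 with vorinostat also passed with RLE size factors (adjusted p = 0.0458), with DESeq2 (0.0316) and against the mean of both solvent sets (0.0235).

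**Figure D4:**
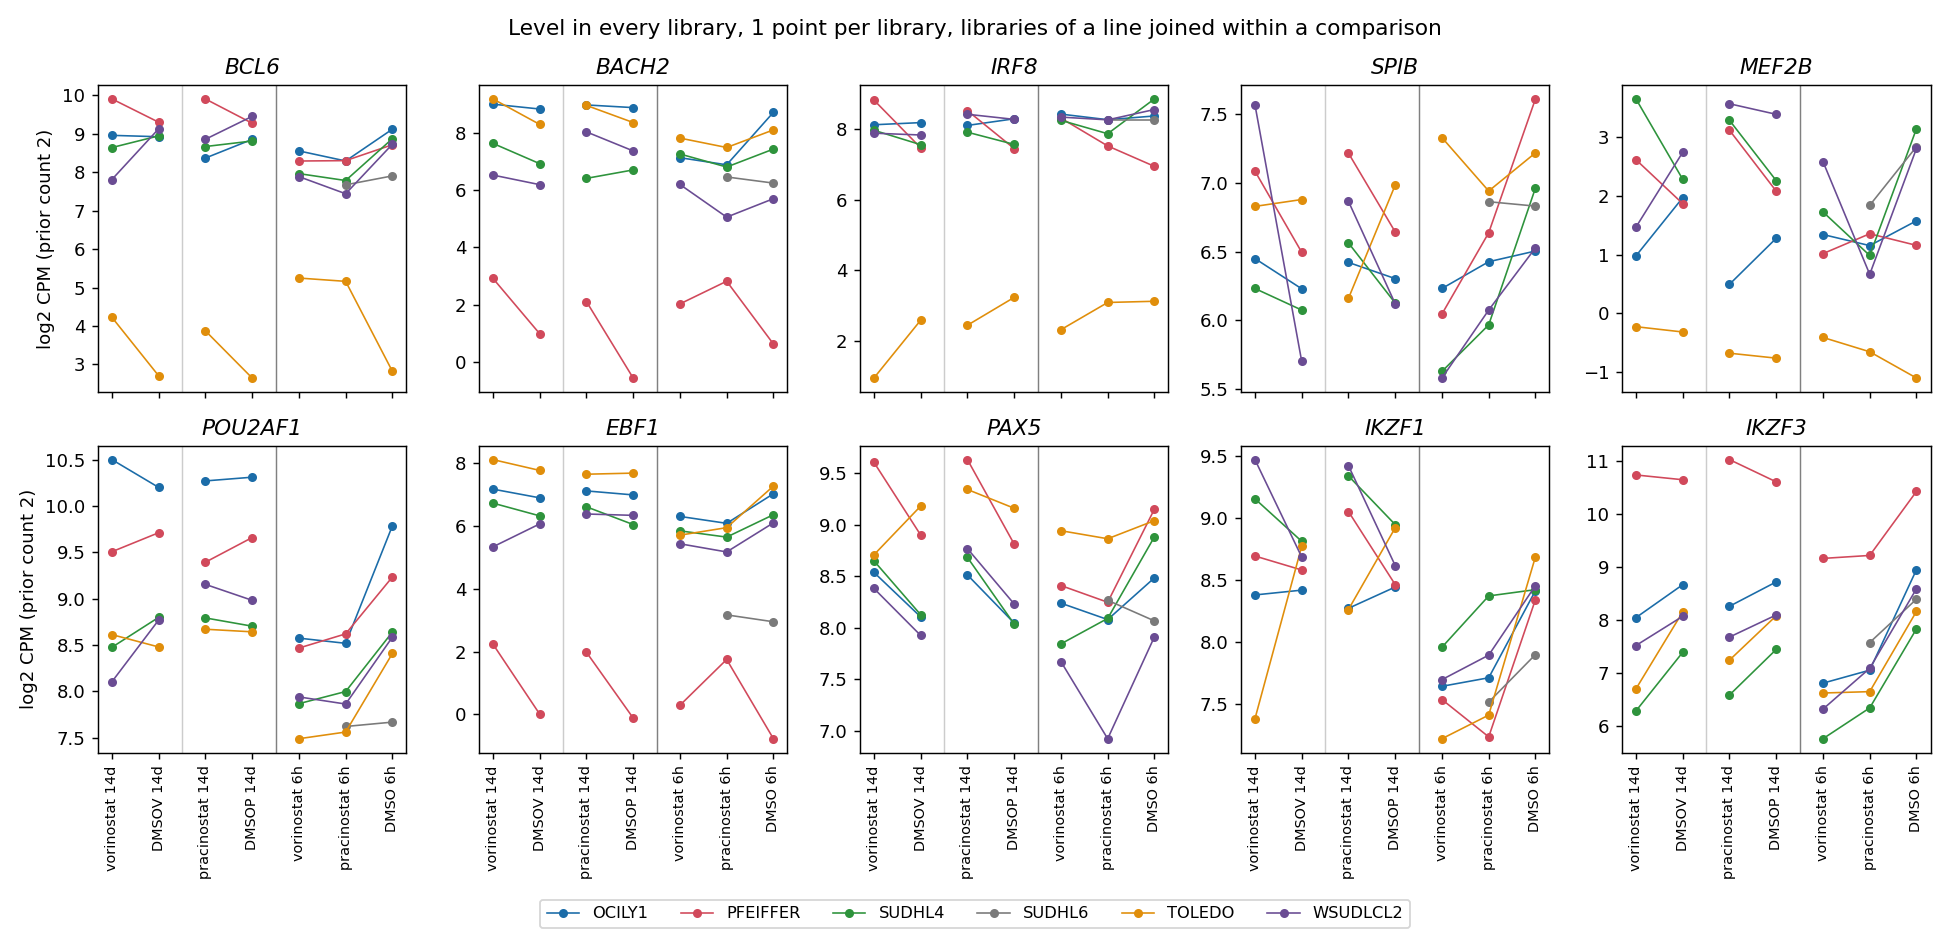
Level of each gene in every library as log2 CPM (prior count 2), with 1 point per library, coloured by line and joined within each comparison. In the 6 h part, IKZF3, IKZF1 and POU2AF1 are lower with drug than with DMSO in every line; TOLEDO lies far below the other lines for BCL6 and IRF8, and PFEIFFER for BACH2 and EBF1.

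The other genes were not called at 14 days under either drug, and several split by line. IKZF1 in TOLEDO had 166 CPM with vorinostat and 306 CPM with pracinostat, against 437 CPM in DMSOV and 485 CPM in DMSOP, whereas in WSUDLCL2 it had 711 CPM with vorinostat and 687 CPM with pracinostat, against 411.5 CPM in DMSOV and 392 CPM in DMSOP. SPIB had a fitted value of 0.60 (SE 0.24, adjusted p = 0.0565) with vorinostat, and in WSUDLCL2 it had 189.7 CPM against 51.7 CPM in DMSOV. SPIB passed with vorinostat without TOLEDO, at 0.76 (adjusted p = 0.0260), and with all lines in DESeq2 (adjusted p = 0.0367) and against the mean of both solvent sets (0.0424). With pracinostat its fitted value was 0.26 (SE 0.24). BACH2 was higher in 5 of 5 lines with vorinostat, with a fitted value of 0.85 (SE 0.39, adjusted p = 0.101, and 0.0409 in DESeq2), and had 0.53 (SE 0.38) with pracinostat. POU2AF1 lay near its solvent level, at -0.08 (SE 0.15) with vorinostat and 0.03 (SE 0.15) with pracinostat. The fitted value of EBF1 was 0.42 (SE 0.30) with vorinostat and 0.38 (SE 0.30) with pracinostat, and that of MEF2B was 0.17 (SE 0.49) with vorinostat and 0.45 (SE 0.46) with pracinostat. IRF8 had 0.31 (SE 0.30) with vorinostat and 0.15 (SE 0.30) with pracinostat, BCL6 0.17 (SE 0.32) with vorinostat and 0.07 (SE 0.32) with pracinostat, and IKZF1 0.05 (SE 0.25) with vorinostat and 0.20 (SE 0.24) with pracinostat.

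At 14 days TOLEDO still had more BCL6 with drug, and PFEIFFER more EBF1 and BACH2, each against its own solvent set. BCL6 in TOLEDO had 18.4 CPM with vorinostat against 6.20 CPM in DMSOV, a ratio of 2.97 (95% exact counting interval 2.03 to 4.43), and 14.4 CPM with pracinostat against 5.95 CPM in DMSOP, a ratio of 2.41 (1.66 to 3.55). EBF1 in PFEIFFER had 31 counts with vorinostat and 29 with pracinostat against 5 in each solvent library. BACH2 in PFEIFFER had 51 counts with vorinostat against 12 in DMSOV, and 32 counts with pracinostat against 3 in DMSOP. MEF2B in TOLEDO had 3 counts with vorinostat against 3 in DMSOV and 2 with pracinostat against 2 in DMSOP. IRF8 in TOLEDO was lower, with 9 counts with vorinostat against 35 in DMSOV and 33 with pracinostat against 66 in DMSOP. In PFEIFFER IRF8 was higher, at 454.5 CPM with vorinostat against 178 CPM in DMSOV and 369 CPM with pracinostat against 175 CPM in DMSOP.

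Whether each drug's effect at 14 days differed from that at 6 h was tested by an interaction term, 14 days minus 6 h, in 1 fit of all libraries. The block was line within time, so the effects of a line at 6 h and at 14 days were not paired. SUDHL6 entered the pracinostat effect at 6 h only. With vorinostat 5 of 10 genes were called and with pracinostat 4 of 10, all in the direction of a higher value at 14 days, while over all genes 23.4% were called with vorinostat (11.2% higher) and 19.4% with pracinostat (9.53% higher). IKZF3 had an interaction of 1.11 (SE 0.25, adjusted p = 0.00228) with vorinostat and 1.00 (SE 0.25, adjusted p = 0.00527) with pracinostat. PAX5 had 0.79 (SE 0.23, adjusted p = 0.0148) with vorinostat and 1.06 (SE 0.23, adjusted p = 0.00180) with pracinostat, and POU2AF1 had 0.72 (SE 0.20, adjusted p = 0.0104) under each drug. IKZF1 had 0.89 (SE 0.31, adjusted p = 0.0350) with vorinostat and 0.89 (SE 0.30, adjusted p = 0.0352) with pracinostat. SPIB was called with vorinostat, at 1.35 (SE 0.34, adjusted p = 0.00460), and had 0.74 (SE 0.32, adjusted p = 0.110) with pracinostat. Its solvent level differed between the times too, with means of 127 CPM in DMSO at 6 h, SUDHL6 included, and 80.2 CPM in DMSOV at 14 days. With vorinostat the means were 79.5 CPM at 6 h and 120 CPM at 14 days.

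These interactions held to different degrees when a line was left out. IKZF3 kept its call under both drugs, PAX5 with pracinostat and SPIB with vorinostat, whichever line was left out. IKZF1 lost it without OCILY1, PFEIFFER, SUDHL4 or WSUDLCL2 (adjusted p = 0.0814, 0.0981, 0.0992 and 0.147 with vorinostat, and 0.0715, 0.175, 0.0770 and 0.115 with pracinostat). PAX5 with vorinostat lost it without PFEIFFER or SUDHL4 (adjusted p = 0.107 and 0.125). With library totals alone, IKZF1 lost it under both drugs (adjusted p = 0.0868 with vorinostat and 0.0859 with pracinostat), and so did PAX5 with vorinostat (adjusted p = 0.0626). POU2AF1 lost it with vorinostat without OCILY1 or TOLEDO (adjusted p = 0.0919 and 0.0824) and with pracinostat without SUDHL4 (adjusted p = 0.0631). SPIB with pracinostat passed without TOLEDO, at 0.99 (adjusted p = 0.0261). EBF1 passed under both drugs without PFEIFFER, at 0.99 with vorinostat (adjusted p = 0.0335) and 1.02 with pracinostat (adjusted p = 0.0290).

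Vorinostat and pracinostat, both hydroxamic acids, were compared at each time, for all 10 genes. At 6 h the drug libraries were compared directly. At 14 days the comparison was the vorinostat effect against DMSOV minus the pracinostat effect against DMSOP. Of the 10 genes 0 were called at 6 h and 0 at 14 days in edgeR, with 1 at 6 h and 0 at 14 days at an unadjusted p under 0.05 and 0 by DESeq2. Over all genes 0.0152% were called at 6 h and 0% at 14 days. At 6 h the vorinostat minus pracinostat value of IKZF3 was -0.39 (95% interval -0.72 to -0.06, adjusted p = 0.461). The value of IKZF1 was -0.16 (-0.47 to 0.15), that of POU2AF1 -0.12 (-0.41 to 0.16), and that of MEF2B 0.62 (-0.25 to 1.48). BCL6 had 0.15 (-0.57 to 0.86), BACH2 0.29 (-0.45 to 1.03), IRF8 0.21 (-0.28 to 0.70) and SPIB -0.28 (-0.71 to 0.16). EBF1 had -0.09 (-0.71 to 0.53) and PAX5 0.10 (-0.26 to 0.46). At 14 days the intervals were wider, for example -0.82 to 0.27 for IKZF3 and -0.36 to 1.05 for SPIB. These intervals do not show that the drugs act alike, and doses were not given. Between DMSOV and DMSOP 0 of the 10 genes were called, with 0 at an unadjusted p under 0.05 and 0 by DESeq2, and over all genes 0% were called.

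Across the 21 per-line differences between drug and solvent, pairs of genes moved together to different degrees. These correlations are descriptions, because the values share lines, libraries and controls. BACH2 and EBF1 had a Pearson r of 0.84, SPIB and PAX5 of 0.76, and PAX5 and IKZF3 of 0.75, while BCL6 and IKZF1 had -0.47. PFEIFFER had the highest difference of both BACH2 and EBF1 in every comparison. Its solvent libraries held only 3 to 12 counts of BACH2 and 2 to 5 of EBF1. TOLEDO had the highest difference of BCL6 in every comparison. Correlations of these genes rest heavily on those lines and were not computed without them. Among 12907 genes, the gene most like IKZF3 was BANK1 (0.91), a B-cell scaffold gene, and the gene most like IKZF1 was SYK (0.92), which encodes a kinase of the B-cell receptor. CSK was most like PAX5 (0.89), RCSD1 most like EBF1 (0.95), REST most like BACH2 (0.86), MAPK10 most like BCL6 (0.89), NEIL1 most like MEF2B (0.91), RHEX most like SPIB (0.86) and SMYD5 most like POU2AF1 (0.86).

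Genes that PAX5 and EBF1 are known to activate were mostly called lower at 6 h. Of 15 tested, 12 were called lower and 1 higher with vorinostat, and 11 lower and 1 higher with pracinostat, beside 20.9% and 18.9% of all genes called lower. Their median log2 fold change was -1.04 with vorinostat and -0.75 with pracinostat, and at 14 days, over 18 genes, 0.43 with vorinostat and 0.62 with pracinostat. CD72, a B-cell surface receptor, changed by -1.99 (SE 0.24) with vorinostat and -1.70 (SE 0.22) with pracinostat on the log2 scale, and the kinase gene BLK by -1.55 (SE 0.14) with vorinostat and -1.38 (SE 0.13) with pracinostat. The exception was LYN, a kinase with activating and inhibitory roles, at 0.73 (SE 0.11) with vorinostat and 0.41 (SE 0.11) with pracinostat. At 14 days 6 of 18 were called higher and 0 lower under each drug. Over all genes 37.6% were called with vorinostat in either direction, and 12.3% were called higher with pracinostat. FCER2, the low-affinity IgE receptor, had 4.68 (SE 0.79) with vorinostat and 4.15 (SE 0.75) with pracinostat, CR2, a complement receptor, 3.68 (SE 0.94) with vorinostat and 3.48 (SE 0.87) with pracinostat, and CIITA, the regulator of MHC class II genes, 1.82 (SE 0.44) with vorinostat. CIITA was also called with pracinostat (adjusted p = 0.0186). The difference between the times was called higher for 13 of 18 with vorinostat and 14 of 18 with pracinostat. Over all genes it was called higher for 11.2% with vorinostat and 9.53% with pracinostat. FCER2, CR2 and RAG1 did not pass the filter at 6 h, so the counts at the times differ in their genes. These genes could enter the 14-day and interaction tests through the drug libraries alone. Any call of them higher there is then not separate support.

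BCL6 partners and targets gave mixed counts. At 6 h 43.9% of all genes were called with vorinostat (20.9% lower) and 40.1% with pracinostat (18.9% lower). At 14 days 37.6% of all genes were called with vorinostat (17.2% lower) and 22.6% with pracinostat (12.3% higher). Of 10 corepressor genes, 5 were called lower and 2 higher with vorinostat at 6 h, and 5 lower and 1 higher with pracinostat, with a median log2 fold change of -0.45 with vorinostat and -0.56 with pracinostat. At 14 days 4 of 9 were called lower and 1 higher with vorinostat, and 1 lower and 0 higher with pracinostat, with medians of 0.08 with vorinostat and -0.07 with pracinostat. At 6 h CBFA2T3, a corepressor of the ETO family, changed by -1.39 (SE 0.24) with vorinostat and -1.25 (SE 0.22) with pracinostat, while HDAC3 changed by 0.78 (SE 0.11) with vorinostat and 0.54 (SE 0.10) with pracinostat. Of 18 genes that BCL6 is known to repress, 6 were called higher and 4 lower with vorinostat at 6 h, and 4 higher and 5 lower with pracinostat. At 14 days 7 were called higher and 3 lower with vorinostat, and 2 higher and 2 lower with pracinostat. Their median was 0.16 with vorinostat and 0.01 with pracinostat at 6 h, and 0.19 with vorinostat and -0.03 with pracinostat at 14 days. CDKN1A, the p21 gene, had 2.22 (SE 0.30) with vorinostat and 2.06 (SE 0.28) with pracinostat at 6 h.

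Other B-cell regulators moved both ways. The shares of all genes called were 43.9% with vorinostat and 40.1% with pracinostat at 6 h. They were 37.6% with vorinostat and 22.6% with pracinostat at 14 days. Of 29 further B-lineage transcription factor genes, 10 were called lower and 4 higher with vorinostat at 6 h, and 9 lower and 2 higher with pracinostat. Their median was -0.24 with vorinostat and -0.20 with pracinostat at 6 h, and 0.32 with vorinostat and 0.20 with pracinostat at 14 days. At 6 h POU2F2 (OCT2), the octamer factor that POU2AF1 binds, changed by -0.88 (SE 0.25) with vorinostat and -0.99 (SE 0.23) with pracinostat, and SPI1 (PU.1) by -1.01 (SE 0.24) with vorinostat and -0.82 (SE 0.22) with pracinostat. EGR1, an immediate early gene, had 1.80 (SE 0.39) with vorinostat and 1.05 (SE 0.36) with pracinostat. At 14 days 10 were called higher and 4 lower with vorinostat, and 2 higher and 3 lower with pracinostat, with LMO2 at 2.93 (SE 0.89) with vorinostat and 2.94 (SE 0.87) with pracinostat. Of the paralogs of the 10 genes, 1 of 10 tested was called lower and 1 higher with vorinostat at 6 h, where BACH1 had 0.63 (SE 0.15), and 2 were called lower and 1 higher with pracinostat. At 14 days 2 of 11 paralogs were called higher and 0 lower under each drug. The median of the paralogs was -0.06 with vorinostat and -0.25 with pracinostat at 6 h, and 0.32 with vorinostat and 0.24 with pracinostat at 14 days.

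Markers of germinal centre and plasma cells were counted beside them. Among all genes, 43.9% were called with vorinostat (20.9% lower) and 40.1% with pracinostat (18.9% lower) at 6 h. At 14 days the shares were 37.6% with vorinostat and 22.6% with pracinostat (12.3% higher). Of 15 germinal centre markers 7 were called lower and 2 higher with vorinostat at 6 h, and 6 lower and 0 higher with pracinostat. Their median was -0.85 with vorinostat and -0.61 with pracinostat at 6 h, and 0.24 with vorinostat and 0.27 with pracinostat at 14 days. At 6 h BCL7A had -1.77 (SE 0.13) with vorinostat and -1.72 (SE 0.12) with pracinostat. At 14 days 5 were called higher and 1 lower with vorinostat, and 3 higher and 1 lower with pracinostat. Of 12 plasma cell genes 4 were called lower and 2 higher with vorinostat at 6 h, and 5 lower and 2 higher with pracinostat. SDC1, the plasma cell surface marker CD138, had 4.49 (SE 0.84) with vorinostat and 4.77 (SE 0.79) with pracinostat, and TNFRSF17 (BCMA) had -2.41 (SE 0.26) with vorinostat and -2.12 (SE 0.23) with pracinostat. The median of the plasma cell genes was -0.06 with vorinostat and -0.33 with pracinostat at 6 h, and 0.50 with vorinostat and 0.23 with pracinostat at 14 days. At 14 days 4 of 11 were called higher with vorinostat and 1 of 11 with pracinostat, 0 lower under either drug, and PRDM1, the Blimp-1 gene that BCL6 represses, had 1.82 (SE 0.44) with vorinostat.

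Markers of B cells and of other cell types moved as well. For comparison, 20.9% of all genes were called lower with vorinostat and 18.9% with pracinostat at 6 h. At 14 days 37.6% of all genes were called with vorinostat and 22.6% with pracinostat (12.3% higher). Of 6 B-cell markers 5 were called lower at 6 h under each drug, and 3 with vorinostat and 2 with pracinostat were called higher at 14 days. Their median was -1.01 with vorinostat and -0.81 with pracinostat at 6 h, and 0.71 with vorinostat and 0.51 with pracinostat at 14 days. Of the 13 myeloid markers 6 are in the count table, and 4 of the 5 tested at 14 days were called higher under each drug. Their summed level at 14 days was 6.30 to 84.7 CPM with vorinostat and 13.9 to 88.5 CPM with pracinostat, against 3.78 to 15.8 CPM in DMSOV and 3.73 to 14.2 CPM in DMSOP. ITGAM, CD33 and ITGAX had a median of 0 CPM over the solvent libraries at 14 days, against 2.8, 1.68 and 3.29 CPM over the drug libraries. CSF1R had 0.375 CPM in solvent and 3.87 CPM with drug. Such genes could pass the filter on low counts through the drug libraries alone. A call higher was then the likely outcome, and the count of calls is not separate support. Of the 13 T-cell markers 10 are in the table, and of the 3 tested at 6 h TCF7 was called higher and LCK lower under both drugs. At 14 days 0 of 4 were called with vorinostat and 1, TRAC, higher with pracinostat. The T-cell markers summed to 5.06 to 721.5 CPM with vorinostat and 8.89 to 720.1 CPM with pracinostat at 14 days, against 7.35 to 1213 CPM in DMSOV and 6.499 to 1172 CPM in DMSOP. Their medians were 340.1 CPM with vorinostat and 368.8 CPM with pracinostat, against 136.1 CPM in DMSOV and 129.4 CPM in DMSOP. The sum was higher with either drug in OCILY1, SUDHL4 and WSUDLCL2, lower in PFEIFFER, and in TOLEDO lower with vorinostat and higher with pracinostat. Their part in the results was not tested.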

How the data were processed

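Total RNA was isolated with Trizol and sequenced from Illumina TruSeq RNA kit libraries, per the labels' protocols. STAR, edgeR and hg38 are named without versions, per the submitters' processing notes; the annotation release and strand setting were not given in the sources used here. The deposited raw table holds whole-number read counts per gene. The deposited normalized table holds log2 CPM, which recomputation from the counts matched to within 5e-06. Of 38 samples, 37 had a column; 1 of the samples labelled SUDHL4 vorinostat 14 days was not analysed here.

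Counts were fitted with edgeR 4.0.16 in R 4.3.3 (TMM scaling, filterByExpr with a minimum count of 10 and total of 15, robust quasi-likelihood test, Benjamini-Hochberg over all genes tested, threshold 0.05), with the cell line as block because each line gave 1 library per treatment. There were 3 fits: 6 h, 14 days, and all libraries with line within time as block for the interaction. The tests covered 13177, 14037 and 15420 genes. Nothing says that libraries came from separate cultures. With the block, p-values measure how far differences between treatments varied from line to line, not the spread between cultures. DESeq2 1.42.0, limma 3.58.1 on the log2 CPM, other scalings, no filter, no block and each line left out were alternatives. Per-line log2 differences use a prior count of 2, and their 95% exact intervals cover counting error only. Libraries held 3188528 to 8919622 counts, so 3 counts, the limit that a count of 0 allows, are 0.332 to 1.03 CPM.

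Of 18011 genes, 17859 matched GENCODE 29 by identifier. The steps were tested on simulated data. All 10 genes are described whatever their values; of each related list, counts are given with some of the up to 3 called genes that rose or fell most, and of each gene's likeness ranking the first. A few of these genes are not reported here. The members and lists were chosen with earlier results of these data known.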

Additional observations from a re-analysis of the deposited data

Results flagged for a closer look

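Of 40 sets of per-line differences from solvent, 4 held a line far from the others, where chance gives about 1 in 20. The sets are not independent, since both 6 h comparisons share their DMSO libraries. BCL6 in TOLEDO stood apart at 2.43 on the log2 scale with vorinostat and 2.34 with pracinostat at 6 h, with the nearest other lines at -0.42 and -0.23. Both values rest on the same TOLEDO DMSO library, which held 44 counts of BCL6. EBF1 in PFEIFFER stood at 2.09 with pracinostat at 14 days, and PAX5 in TOLEDO at -0.47 with vorinostat at 14 days.

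Of 70 sets of levels, 22 held such a line. Their values are log2 CPM with a prior count of 2. BCL6 in TOLEDO had 5.25 with vorinostat, 5.16 with pracinostat and 2.82 with DMSO at 6 h, and 3.87 with pracinostat, 2.70 with DMSOV and 2.65 with DMSOP at 14 days. IRF8 in TOLEDO had 2.32 with vorinostat, 3.09 with pracinostat and 3.13 with DMSO at 6 h. At 14 days IRF8 there had 0.95 with vorinostat, 2.45 with pracinostat, 2.59 with DMSOV and 3.24 with DMSOP. MEF2B in TOLEDO had -0.32 with DMSOV. BACH2 in PFEIFFER had 2.03 with vorinostat and 0.63 with DMSO at 6 h, and -0.56 with DMSOP at 14 days. EBF1 in PFEIFFER had 0.29 with vorinostat at 6 h, and 1.98 with pracinostat, 0.012 with DMSOV and -0.11 with DMSOP at 14 days. PAX5 in PFEIFFER was above the other lines at 9.61 with vorinostat at 14 days.

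The effect of a drug differed between 14 days and 6 h, tested as an interaction in edgeR, in 9 cases. With vorinostat the differences on the log2 scale were 1.35 for SPIB, 1.11 for IKZF3, 0.89 for IKZF1, 0.79 for PAX5 and 0.72 for POU2AF1. With pracinostat they were 1.06 for PAX5, 1.00 for IKZF3, 0.89 for IKZF1 and 0.72 for POU2AF1.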

How the results depend on the processing

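Without the replicate block (cell line left out of the design) the 10 genes gave 1 call with vorinostat and 0 with pracinostat at 6 h, 0 with either drug at 14 days and 0 for both interactions. Over all genes that fit called 1106 with vorinostat and 577 with pracinostat at 6 h, and 696 with vorinostat and 8 with pracinostat at 14 days. With vorinostat at 14 days there were 2 calls with RLE size factors, 4 with DESeq2 and 3 against the mean of DMSOV and DMSOP. With library totals alone the vorinostat interaction gave 3 calls. That scaling moved the median of all genes by over 0.1, to 0.014 against 0.125 with vorinostat at 14 days, 0.132 against 0.029 with pracinostat at 6 h, -0.067 against 0.092 for the vorinostat interaction and -0.086 against 0.063 for the pracinostat interaction. Leaving out each line in turn gave 0 to 2 calls with vorinostat and 0 to 1 with pracinostat at 14 days, and 3 to 5 for the vorinostat and 2 to 5 for the pracinostat interaction. The other counts stayed within 1.5 times, a limit that the 6 h counts reached. With the block kept, these ran from 4 to 6 with vorinostat and from 4 to 7 with pracinostat, against 6 in each main fit. Library totals alone and limma each gave 4 under both drugs. So did leaving out SUDHL4 under both drugs, OCILY1 with vorinostat and WSUDLCL2 with pracinostat. The cause was not tested.

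Signs turned only for values that were not called. At 6 h with vorinostat, BACH2 had 0.047 with limma, and IRF8 -0.034 with limma, -0.013 with DESeq2 and -0.087 without the block. At 14 days with vorinostat, limma gave IRF8 -0.0070, MEF2B -0.023 and IKZF1 -0.038, library totals gave IKZF1 -0.040, and no block gave BCL6 -0.020 and POU2AF1 0.013. At 14 days with pracinostat, POU2AF1 had -0.0023 with limma, -0.036 with library totals and -0.014 without the block, which also gave BCL6 -0.021 and IKZF3 0.087. Leaving out lines gave ranges, with vorinostat at 6 h, of -0.46 to 0.17 for BACH2 and -0.30 to 0.18 for IRF8. With vorinostat at 14 days they were -0.15 to 0.43 for BCL6, -0.015 to 0.49 for IRF8, -0.36 to 0.58 for MEF2B, -0.20 to 0.013 for POU2AF1 and -0.16 to 0.33 for IKZF1. With pracinostat at 14 days they were -0.15 to 0.28 for BCL6, -0.065 to 0.33 for IRF8 and -0.022 to 0.11 for POU2AF1. The vorinostat interaction of MEF2B ranged from -0.18 to 1.04. Counts of 1 to 3 for MEF2B in TOLEDO and 2 to 5 for EBF1 in PFEIFFER solvent libraries limit ratios there.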
